A study of Mus musculus with 12 samples.

Results

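Hair follicle stem cells (HFSCs) express genes for secreted proteins that reach the vessels, nerve endings and muscle around the bulge, the stem cell niche of the hair follicle. The 9 genes described here, Angptl2, Angptl4, Angptl7, Ntn4, Sema3a, Vegfa, Vegfc, Egfl6 and Npnt, were chosen by name and found by gene symbol in 2 tables, one of 17885 genes from control and Eed iKO HFSCs and one of 21915 genes from anagen and telogen HFSCs. All 9 were present in both. The study asked how HFSCs respond to loss of Polycomb repressive complex 2 (PRC2), which places the repressive mark H3K27me3, and which of the responding genes change with the hair cycle. RNA was sequenced in 12 libraries of C57BL/6J mice, 3 for each of 4 groups.

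The Eed iKO libraries came from back skin at postnatal day 70, after K15-CrePGR; Eed fl/fl mice had received RU-486 on shaved dorsal skin, 100 µl at 10 mg/ml, once a day for 7 days. K15-CrePGR drives a Cre that responds to RU-486 in Krt15-expressing bulge cells, and Eed is a core subunit of PRC2. The control libraries are labelled wildtype and of the same age, and the study's methods give the same volume of ethanol as the control treatment. Deletion of Eed and exposure to RU-486 therefore cannot be told apart. Anagen (growth) libraries are of wild type mice at days 28 to 30, and telogen (rest) libraries of wild type mice at days 50 to 52, so hair cycle stage and age cannot be told apart. Both sexes were used. The sort gate kept EpCAM(+) cells that were CD34(+) and α6-integrin(high) but Sca1(-). The labels do not say whether replicates are separate animals. The study describes the control and Eed iKO libraries as biological replicates from more than a single litter. How the hair cycle animals fall into the libraries is not stated. The p-values rest on the spread between these libraries, which limma estimates partly from other genes of like level. In bulk RNA, fewer cells of a type and less RNA per cell cannot be told apart.

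In the skin, angiopoietin-like proteins, semaphorins and netrins from the bulge are known to act on the lymphatic capillaries beside it, and ANGPTL7 is associated with quiescent stem cells. EGFL6 is deposited in the matrix between the bulge and the touch-sensing nerve endings around it, and nephronectin, the product of Npnt, anchors the arrector pili muscle through the integrin α8β1. VEGFA acts on blood vessels and VEGFC on lymphatic vessels.

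PRC2 is known to act at CpG-rich promoters, so the sequence before the start of each gene is shown for the 4 genes that changed with the hair cycle. Each is the 250 bases before the first RefSeq transcript start (GRCm38.p6), printed 5′ to 3′ on the gene's own strand, and capitals mark every CG dinucleotide, the motif searched, which reads the same on both strands.
Angptl7: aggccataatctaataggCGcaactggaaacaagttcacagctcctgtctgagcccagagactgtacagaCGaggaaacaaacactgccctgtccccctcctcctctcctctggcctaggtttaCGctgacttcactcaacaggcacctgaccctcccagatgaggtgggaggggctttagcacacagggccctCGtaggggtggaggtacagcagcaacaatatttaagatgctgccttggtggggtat
Angptl2: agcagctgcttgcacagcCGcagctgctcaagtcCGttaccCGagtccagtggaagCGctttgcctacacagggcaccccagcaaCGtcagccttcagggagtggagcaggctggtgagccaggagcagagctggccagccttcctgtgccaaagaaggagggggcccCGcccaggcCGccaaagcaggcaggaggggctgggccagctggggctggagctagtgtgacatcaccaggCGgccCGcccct
Vegfa: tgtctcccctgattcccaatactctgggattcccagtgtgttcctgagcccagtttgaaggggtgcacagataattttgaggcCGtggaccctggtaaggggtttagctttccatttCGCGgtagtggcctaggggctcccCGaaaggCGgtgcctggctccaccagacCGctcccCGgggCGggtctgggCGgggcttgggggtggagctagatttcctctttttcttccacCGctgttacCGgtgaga
Npnt: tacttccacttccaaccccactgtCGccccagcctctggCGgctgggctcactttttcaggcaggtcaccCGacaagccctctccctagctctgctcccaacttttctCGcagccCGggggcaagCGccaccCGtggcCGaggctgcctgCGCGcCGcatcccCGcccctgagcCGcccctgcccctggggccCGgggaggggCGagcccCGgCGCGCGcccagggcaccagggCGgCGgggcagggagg
The windows lie at chr4:148500463-148500712 (minus strand), chr2:33215711-33215960 (plus strand), chr17:46032378-46032627 (minus strand) and chr3:132950292-132950541 (minus strand). They hold 4 CG in Angptl7, 9 in Angptl2, 11 in Vegfa and 21 in Npnt. Among 32851 RefSeq windows of the same length, 92.1% held at least 1 CG and the median was 6, and 62.2%, 40.3%, 35.6% and 16.3% held at least as many as these genes. Of the other members, Vegfc had 30, Ntn4 26, Egfl6 15 and Sema3a 2, and 8 of 9 genes matched the RefSeq table, Angptl4 not among them. The windows of Sema3a (chr5:13396534-13396783) and Ntn4 (chr10:93640799-93641048) lie inside the gene spans given below. Their counts therefore do not describe the sequence before the start of those spans. These counts describe the sequence only.

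In the text, a value is a normalized count, the count of a gene as scaled by the authors, and a fold change is on the log2(value + 1) scale. The Eed iKO values behaved as counts divided by a size factor of the library, while the form of the hair cycle scaling is not known. Groups were compared with limma across all genes that passed a filter on low values, with Benjamini-Hochberg adjusted p-values, and a gene changed where the adjusted p was under 0.05. From the Eed iKO table, 33269583 to 57063586 reads per library were recovered as whole numbers, while the hair cycle libraries are of unknown depth and their normalized counts summed to 11370984 to 13186648. Libraries of a group correlated with r of 0.91 to 0.961 across genes and none were identical. Transcripts of Eed were 1084, 1249 and 950.2 in control and 933.3, 1361 and 1002 in the libraries labelled Eed iKO, so Eed mRNA was not lower under that label. This count covers whole transcripts rather than the floxed exons alone. The study reports the opposite from its own checks of the deletion. By RT-qPCR, Eed mRNA was lower in sorted Eed iKO HFSCs, and by staining H3K27me3 was lost in these cells by day 70. Those checks were not analysed here. Summed over 9 bulge markers, Cd34 and Krt15 among them, the level was 377796 to 458870 in anagen and 177864 to 455260 in telogen, the lowest in telogen replicate 1, without which the same number of members, 4, passed the hair cycle test. In the other table it was 754343 to 856591 in control and 833135 to 940350 in Eed iKO. Most of this sum is Krt15, and 2 markers used for the sort gate moved with the stage, Cd34 rising by 1.21 on the log2 scale in telogen (limma adjusted p = 0.00382) and Itga6, which encodes α6-integrin, falling by 0.97 (adjusted p = 0.0144). Their part in the hair cycle results was not tested. Cdh5 and Cldn5 (endothelium), Mmrn1 (lymphatic endothelium), Des (smooth muscle) and Sox10 (Schwann cell) were listed at 0 in all 6 hair cycle libraries. Other markers of the same cell types were above 0. Summed smooth muscle markers were 9.23 to 59.2 in anagen and 4.45 to 88.7 in telogen. Summed lymphatic endothelium markers were 16.4 to 31.3 in anagen and 11.4 to 53.6 in telogen. The sums for endothelium and Schwann cells are given under other observations.

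Between anagen and telogen, 4 of the 8 members tested changed, where 11.6% of the 13457 genes tested did. Angptl7 and Angptl2 were higher in telogen, and Vegfa and Npnt were higher in anagen. Among all genes, 4.35% were higher and 7.22% lower in telogen. The libraries of the 2 stages did not overlap for 5 of the 8, Egfl6 being the fifth, against 33.3% of all genes tested. At an unadjusted p under 0.05 there were 5 as well, against 27.3%. The members were chosen with earlier results of these data known, so the shares of all genes are given for description only. Vegfc did not pass the filter. The median log2 fold change (telogen over anagen) of the 8 members was -0.44, with 2 positive and 6 negative, and that of all genes was -0.01. Genes of proliferating cells moved with the stage as well. Mki67, Top2a, Ccnb1, Bub1b and Cdk1, 5 of 5, were lower in telogen, with summed levels of 17046 to 28320 in anagen and 613 to 804 in telogen, and their part in the changes below was not tested.

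Angptl7 (chromosome 4, 148495183 to 148500460, minus strand, GRCm38) encodes the angiopoietin-like protein of quiescent HFSCs and lies within the span of Mtor on the opposite strand, with 0 shared exon bases. It had values of 41.0, 76.8 and 59.5 in anagen replicates 1, 2 and 3, and of 555, 592.5 and 621.2 in telogen. Every telogen library was above every anagen library. The mean rose from 59.1 ± 17.9 to 589.5 ± 33.2 (SD, n = 3 each), a log2 fold change of 3.34 (SE 0.33, 95% interval 2.61 to 4.07, limma adjusted p = 0.00015), or 10.1-fold. Mtor did not pass the test (log2 fold change 0.20, adjusted p = 0.664). Of all members, Angptl7 had the largest change between the stages and was the only one past the thresholds of the study's methods, an unadjusted p under 0.05 with a log2 fold change beyond 2, which 5.1% of all genes met. Vegfa, at -1.99, lay just short of them. By Pearson correlation on log2(value + 1) over the 6 libraries, which share the split by stage, the genes most like it were Hivep2 (r = 0.997), Arhgef5 (r = 0.997) and Sik2 (r = 0.996).

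Angptl2 (chromosome 2, 33216069 to 33247717, plus strand), a secreted protein with roles in angiogenesis and inflammation, had values of 438.4, 524.2 and 607.7 in anagen and 842.8, 1216 and 1074 in telogen. The stages did not overlap. The log2 fold change was 0.99 (SE 0.24, limma adjusted p = 0.0219), or 1.99-fold higher in telogen. This call was lost without anagen replicate 1 (adjusted p = 0.112), anagen replicate 2 (0.0807), telogen replicate 2 (0.0551) or telogen replicate 3 (0.054), and the log2 fold change then lay between 0.87 and 1.00. Ralgps1, whose span holds Angptl2 on the opposite strand with 0 shared exon bases, had values of 53.8 to 72.0 in anagen and 177 to 240.5 in telogen, and rose by 1.66 on the log2 scale (adjusted p = 0.014). Whether reads of one were counted on the other was not tested.

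Angptl4 (chromosome 17, 33773750 to 33781830, minus strand), a secreted inhibitor of lipoprotein lipase that also acts on vessels, was low in both stages. It had values of 30.5, 11.5 and 4.02 in anagen and 5.16, 5.86 and 24.8 in telogen. The ranges overlapped, and 1 library in each stage was far above the rest. The log2 fold change of -0.29 had a 95% interval of -2.27 to 1.69 (limma adjusted p = 0.864), and it turned positive without anagen replicate 1, telogen replicate 1 or telogen replicate 2.

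**Figure D1:**
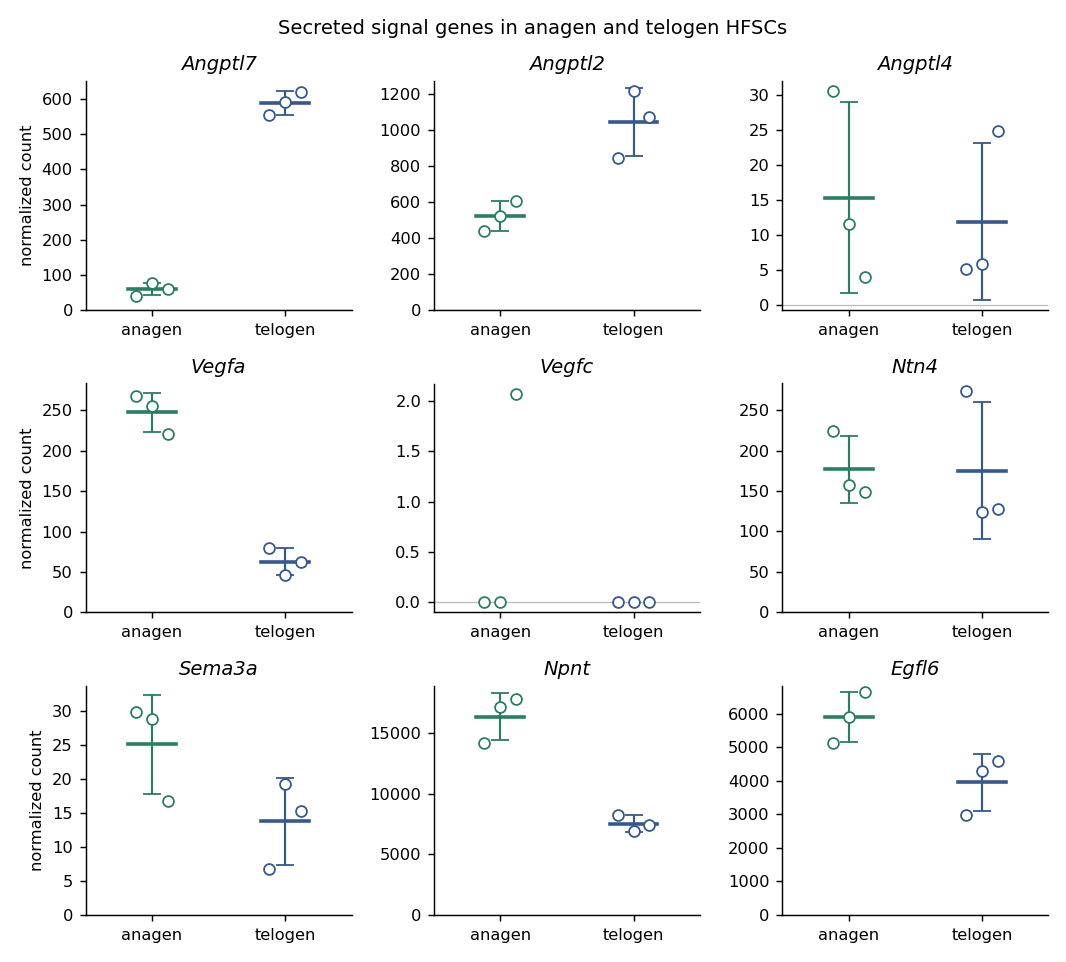
Normalized counts of the 9 genes in anagen and telogen HFSCs, one panel per gene, each with its own axis. Open circles are libraries (replicates 1 to 3 from left to right), and wide bars with error bars are the mean and SD of 3 libraries (none drawn for Vegfc). Angptl7 and Angptl2 are higher in all 3 telogen libraries, and Vegfa, Npnt and Egfl6 are higher in all 3 anagen libraries.

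Vegfa (chromosome 17, 46016993 to 46032369, minus strand), the main growth factor of blood vessel endothelium, had values of 267, 255.1 and 220.3 in anagen and 80.0, 45.9 and 62.6 in telogen. The lowest anagen library was far above the highest telogen library. Vegfa fell by 1.99 on the log2 scale (SE 0.36, 95% interval -2.79 to -1.19, limma adjusted p = 0.00598), from 247.5 ± 24.3 to 62.8 ± 17.1 (SD, n = 3 each), or 3.98-fold. The genes most like it over the 6 libraries, which share the split by stage, were Ndc80 (r = 0.999), Stil (r = 0.997) and Efemp1 (r = 0.997). The first and second of these act in cell division, and a link to Vegfa was not tested. Vegfc (chromosome 8, 54077606 to 54187096, plus strand), the growth factor of lymphatic vessels, was listed at 0 in 5 libraries and at 2.07 in anagen replicate 3.

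The guidance cues did not pass the test. Ntn4 (chromosome 10, 93640681 to 93747207, plus strand), a netrin of basement membranes, had values of 223.8, 157.3 and 148.8 in anagen and 273.6, 124.5 and 127.8 in telogen, and the ranges overlapped with replicate 1 highest in each. The log2 fold change was -0.09 (95% interval -0.95 to 0.77, limma adjusted p = 0.904). Sema3a (chromosome 5, 13125414 to 13602565, plus strand), a semaphorin that repels axons and vessel endothelium through neuropilin and plexin receptors, had values of 29.9, 28.9 and 16.8 in anagen and 6.81, 19.3 and 15.3 in telogen. Only the lowest anagen library fell within the telogen range. The difference of -0.89 had an interval of -2.32 to 0.54 (adjusted p = 0.411), which holds both no change and a fall of more than 2 on the log2 scale.

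The matrix ligands were the most abundant members in both anagen and telogen. Npnt (chromosome 3, 132881745 to 132950291, minus strand) had values of 14140.0, 17168 and 17771 in anagen and 8257, 6895 and 7388 in telogen. The stages did not overlap, and Npnt fell by 1.12 on the log2 scale (SE 0.18, limma adjusted p = 0.00267), or 2.17-fold. Egfl6 (chromosome X, 166523007 to 166585720, minus strand) had values of 5138, 5901 and 6637 in anagen and 2978, 4291 and 4582 in telogen. Here too every anagen library was higher, but the difference of -0.59 (SE 0.21) had an unadjusted p of 0.0154 and a limma adjusted p of 0.0916, above the threshold.

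Ratios of 2 members within a library do not depend on a scaling factor shared by all its genes. Whether the hair cycle values were scaled by such a factor is not known. For every 100 Npnt counts there were 0.29, 0.447 and 0.335 Angptl7 counts in anagen and 6.72, 8.59 and 8.41 in telogen. For Vegfa the same ratio was 1.89, 1.49 and 1.24 in anagen and 0.969, 0.666 and 0.848 in telogen, again without overlap. The 9 genes took 0.156% to 0.193% of all normalized counts in anagen and 0.101% to 0.122% in telogen, most of it from Npnt and Egfl6.

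**Figure D2:**
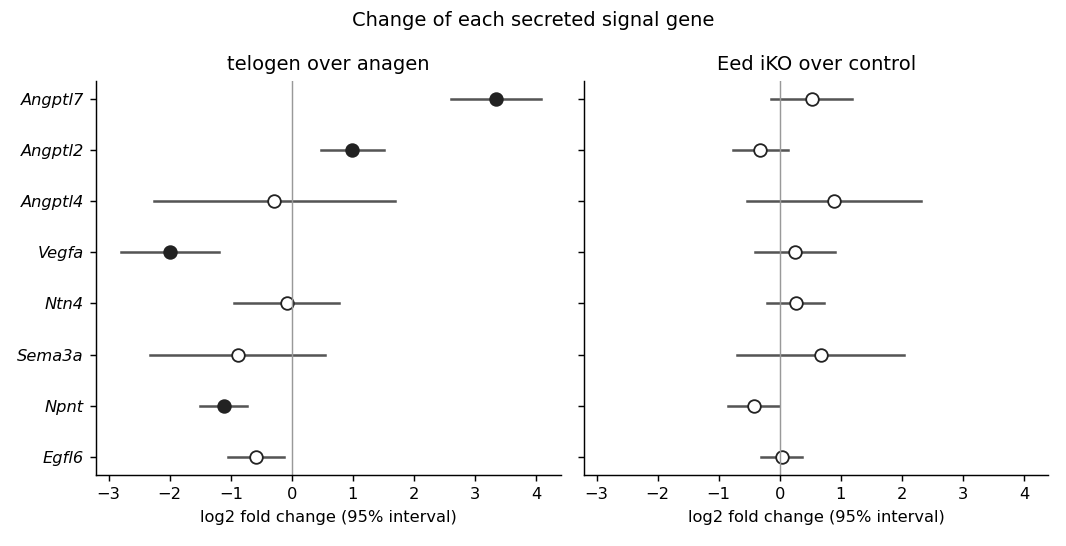
Log2 fold change of the 8 members tested, telogen over anagen on the left and Eed iKO over control on the right, with 95% intervals from limma as lines. Filled points passed an adjusted p under 0.05: Angptl7 (3.34), Angptl2 (0.99), Npnt (-1.12) and Vegfa (-1.99) on the left, and none on the right.

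Between control and the libraries labelled Eed iKO, 0 of the 8 members tested passed limma's adjusted p, where 4 of 15008 genes (0.0267%) did, 0.02% higher and 0.00666% lower in Eed iKO. At the thresholds of the methods (unadjusted p under 0.05 and a log2 fold change beyond 1.5) there were also 0 members, against 1.75% of all genes. By unadjusted p under 0.05 there was 1 member, Npnt, against 14.7% of all genes, and Npnt was also the 1 member by either count test on the recovered reads. The quasi-likelihood test of edgeR called 0 members at an adjusted p under 0.05 (0.0334% of all genes) and 1 at an unadjusted p under 0.05 (14.4%). DESeq2 called 0 members where 5.31% of the 12646 genes given an adjusted p passed, Sema3a having none, and 1 at an unadjusted p under 0.05 (16%). The study, which used DESeq2 after a TPM filter, reports more changed genes than limma called here. Its number is below the 672 genes that DESeq2 called here without a fold threshold. The legend of the study's volcano plot gives another rule, an adjusted p under 0.05 with an absolute fold change of at least 1.5. That rule was not counted here. Sema3a was the 1 member of 8 whose groups did not overlap, against 20.2% of all genes. The median log2 fold change (Eed iKO over control) of the 8 was 0.26, with 6 positive and 2 negative, and that of all genes was 0.00. The intervals below show what differences these 3 libraries against 3 leave possible.

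For Angptl7, the control libraries had values of 5251, 5805 and 13813, and the Eed iKO libraries 9743, 10754 and 11883. Control replicate 3 was higher than all Eed iKO libraries, and the other two were lower than all of them. The log2 fold change was 0.52 (95% interval -0.14 to 1.19, limma adjusted p = 0.446). Without control replicate 3 it was 0.96 (adjusted p = 0.129), and without replicate 3 of both groups it was 0.89 (SE 0.14, adjusted p = 0.0245), a call made after these 2 libraries had been seen to stand apart. Their summed level of 5 suprabasal epidermis markers, among them Krt1 and Krt10, was 43382 in control replicate 3 and 62917 in Eed iKO replicate 3, against 6366 to 16017 in the other 4 libraries. Its part in the Angptl7 values was not tested.

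Angptl2 had values of 7260, 7350 and 9947 in control and 6387, 5015 and 8554 in Eed iKO, with overlapping ranges and a log2 fold change of -0.32 (95% interval -0.77 to 0.13, limma adjusted p = 0.495), which ranged from -0.52 to -0.13 with 1 library left out. Angptl4 had values of 49.3, 55.2 and 67.1 in control and 144.1, 205.8 and 39.5 in Eed iKO. Eed iKO replicates 1 and 2 were above all controls and replicate 3 below them, and the log2 fold change of 0.89 had an interval of -0.54 to 2.32 (adjusted p = 0.552). It was 1.59 without Eed iKO replicate 3 (unadjusted p = 0.0162, limma adjusted p = 0.183) and 0.41 without Eed iKO replicate 2. The same 2 libraries had the highest summed level of the 5 proliferation markers, 10258 and 9898, against 1066 in Eed iKO replicate 3 and 1393 to 3789 in control. Whether this bears on Angptl4 was not tested.

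Vegfa had values of 526.6, 462.5 and 929.4 in control and 598.9, 757 and 847.3 in Eed iKO. Control replicate 3 was the highest of the 6, and the log2 fold change of 0.25 had an interval of -0.40 to 0.91 (limma adjusted p = 0.741). It was 0.56 without control replicate 3 and 0.06 without control replicate 2, neither past the threshold. Vegfc had 0, 2 and 0 reads in control and 0, 0 and 20 in Eed iKO. All but 1 library were thus at or under 3 reads, and Vegfc did not pass the filter.

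Ntn4 was 1141, 875.2 and 1140 in control and 1361, 1004 and 1423 in Eed iKO, overlapping, with a log2 fold change of 0.26 (95% interval -0.21 to 0.73, limma adjusted p = 0.613). Sema3a was 23.6, 30.3 and 24.5 in control and 49.5, 38.5 and 38.6 in Eed iKO. Every Eed iKO library was above every control, yet at this low level the difference of 0.67 had an interval of -0.69 to 2.03 (SE 0.62, adjusted p = 0.656). That width comes from the spread limma assigns to low genes, since without the intensity trend the SE was 0.19 (unadjusted p = 0.0135, limma adjusted p = 0.311).

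Npnt was 10586, 12619 and 8751 in control and 8383, 9369 and 6120 in Eed iKO, and only the lowest control lay within the Eed iKO range. The log2 fold change was -0.43 (95% interval -0.85 to -0.01, unadjusted p = 0.0458, limma adjusted p = 0.326), and lay between -0.56 and -0.25 with 1 library left out. Egfl6 was 7928, 7668 and 8980 in control and 8729, 9636 and 6908 in Eed iKO. The ranges overlapped fully, and the difference of 0.03 had an interval of -0.31 to 0.37 (adjusted p = 0.949).

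**Figure D3:**
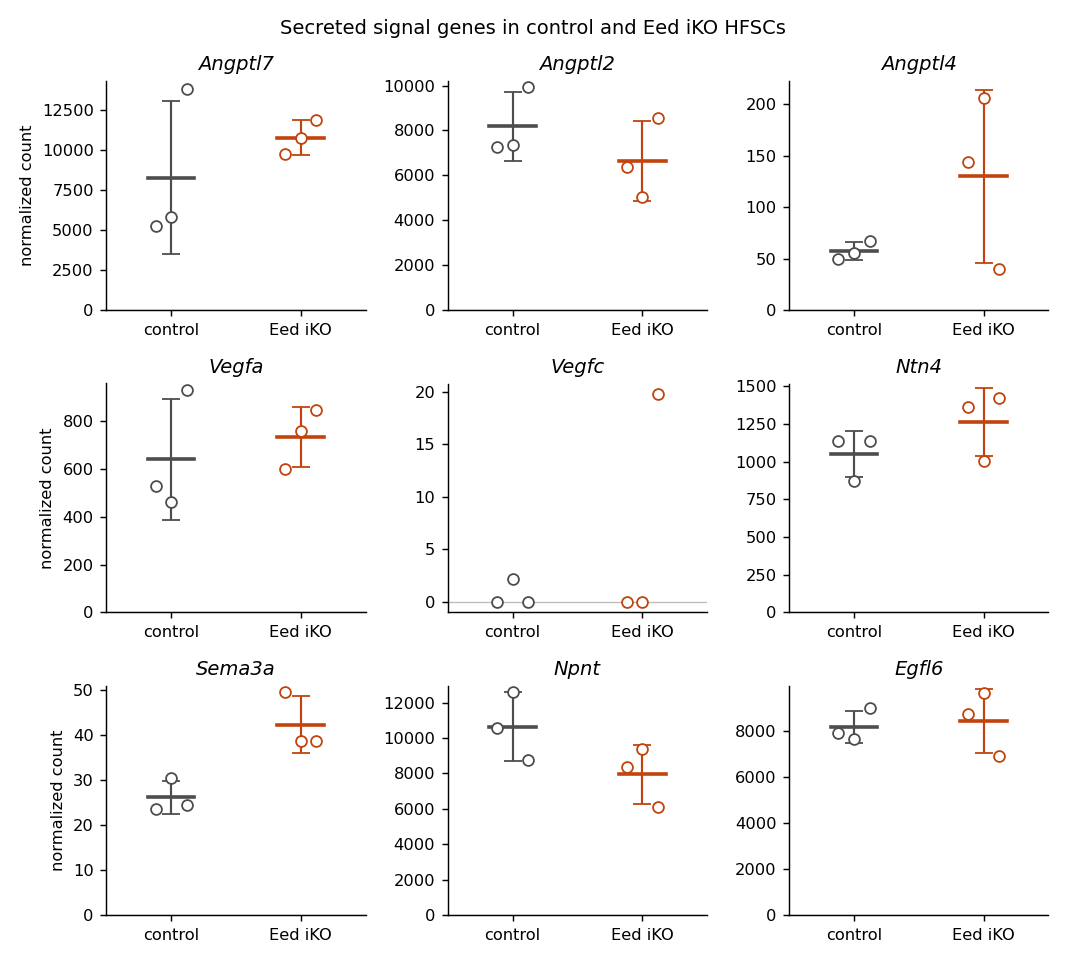
Normalized counts of the 9 genes in control and Eed iKO HFSCs, drawn as for the hair cycle. Apart from Sema3a, whose 3 Eed iKO libraries (38.5 to 49.5) lie above the 3 controls (23.6 to 30.3), the groups overlap, and control replicate 3 has the highest Angptl7 (13813) and Vegfa (929.4).

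To compare levels between genes, normalized counts were divided by the length of the longest coding transcript in kb. In control, Angptl7 (3843 ± 2221 per kb), Egfl6 (3029.6 ± 257), Angptl2 (2451 ± 457) and Npnt (2306 ± 419, SD, n = 3) led, and neighbours in this order overlapped. Ntn4 and Vegfa followed with 288.5 and 185.3 per kb, also overlapping. Angptl4 (17.3), Sema3a (4.41) and Vegfc (0.295) were lowest, with no overlap between them. In Eed iKO the means had the same order, and the Angptl7 libraries (5004 ± 496 per kb) then lay above those of Egfl6 (3115 ± 514).

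In anagen the order per kb was Npnt (3542), Egfl6 (2179), Angptl2 (156.8), Vegfa (71.7), Ntn4 (48.4), Angptl7 (27.4), Angptl4 (4.65), Sema3a (4.24) and Vegfc (0.282), and only Angptl4 and Sema3a overlapped as neighbours. In telogen Npnt (1627) and Egfl6 (1461) still led but overlapped, followed by Angptl2 (312.7) and Angptl7 (273.3), which also overlapped, then Ntn4 (48.1), Vegfa (18.2), Angptl4 (3.61) and Sema3a (2.32). The 2 tables were normalized apart, so telogen and control levels were not compared.

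**Figure D4:**
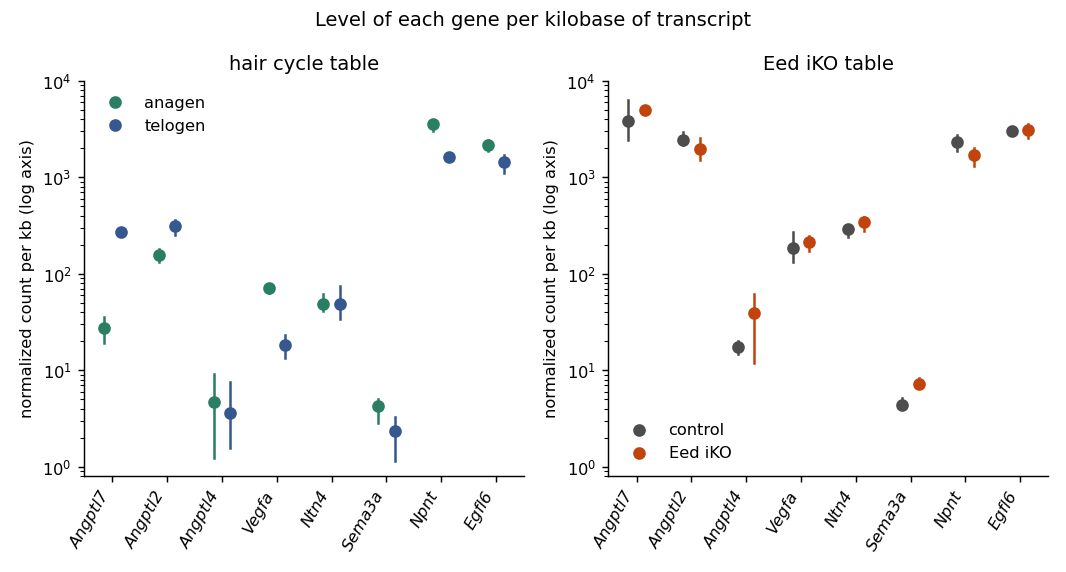
Normalized counts per kb of transcript on a log axis, for anagen and telogen (left) and control and Eed iKO (right). Points are means of 3 libraries and lines run from the lowest to the highest library, and Vegfc, at or near 0, is not drawn. Angptl7 and Vegfa exchange places between anagen (27.4 and 71.7) and telogen (273.3 and 18.2).

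Other genes of the same pathways were counted from 6 lists. Beside the hair cycle counts below, 4.35% of all genes tested were higher and 7.22% lower in telogen. Of 10 further ANGPTL, ANGPT and VEGF ligands, 5 were tested in the hair cycle and 1 rose in telogen. Of 22 guidance cues and neurotrophins, 15 were tested and 2 fell in telogen. Of these, the netrin Ntn1 was 44.1, 22.3 and 41.5 in anagen and 5.83, 1.11 and 0 in telogen (log2 fold change -3.87, limma adjusted p = 0.0165).

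Of 9 matrix partners of EGFL6 and nephronectin, 6 were tested and 2 fell in telogen, both basement membrane proteins of one complex. Frem2 was 3970 to 4871 in anagen and 1295 to 1874 in telogen (log2 fold change -1.42, limma adjusted p = 0.00152), and Fras1 was 222.5 to 353.9 against 40.3 to 108.5 (-2.23, adjusted p = 0.00797). Itga8, the integrin chain that binds nephronectin, is named outside the rule because its adjusted p of 0.0523 lay just above the threshold, with 23.1 to 101.4 in anagen and 0 to 8.68 in telogen.

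Of 20 receptors, 16 were tested, 1 rose and 3 fell in telogen. Plxna2, a plexin that takes part in semaphorin signalling, was 5269 to 6431 in anagen and 9850.2 to 14861 in telogen (log2 fold change 1.12, limma adjusted p = 0.00566). Tek, the angiopoietin receptor, was 74.7, 62.01 and 72.4 in anagen and 5.12, 17.6 and 5.34 in telogen (-2.98, adjusted p = 0.012), and Nrp2, a neuropilin, had a log2 fold change of -1.83 (adjusted p = 0.0478). The third, Neo1, a netrin receptor named outside the rule, had -0.98 (adjusted p = 0.012).

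The hypoxia-inducible list, of which Vegfa is a known companion, held 15 genes, all tested, of which 4 fell in telogen and 0 rose. These counts include the transcription factor genes Hif1a and Epas1. Hif1a, the hypoxia-responsive transcription factor, was 6345, 7270.2 and 7248 in anagen and 1411, 2096 and 2198 in telogen (log2 fold change -1.89, limma adjusted p = 0.000254). Adm, the vasoactive peptide adrenomedullin, was 25.6 to 42.4 against 0 to 11.3 (-3.53, adjusted p = 0.0351). The others, named outside the rule, were the glycolytic enzyme Pgk1 (-1.43) and the prolyl hydroxylase Egln1 (-0.76). In all, 13 of 15 had a negative log2 fold change, with a median of -0.72 beside -0.01 over all genes. Angptl4 is usually counted as PPAR-inducible, and that list held 8 genes, the receptor genes Ppara, Ppard and Pparg among them. Of the 8, 7 were tested and 0 passed, and Plin2 had the smallest unadjusted limma p (0.0586, log2 fold change -0.87).

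In Eed iKO against control, 0 genes of the 6 lists passed limma's adjusted p, from 8 of 10 ligands, 17 of 22 cues, 7 of 9 matrix partners, 17 of 20 receptors, 15 of 15 hypoxia-inducible and 8 of 8 PPAR-inducible genes tested. Over all genes, 4 of 15008 (0.0267%) passed, so 0 in these lists does not show that they were unchanged. The lists were not counted with DESeq2, by which 5.31% of the 12646 genes given an adjusted p passed. By unadjusted limma p under 0.05 there were 2, 2, 3, 3, 2 and 1 genes in the order above, beside 14.7% of all genes tested. In the first 5 lists, the gene with the smallest p was Angptl8 (23.6, 20.6 and 54.4 in control, 0, 0 and 2.97 in Eed iKO, adjusted p = 0.125), the neurotrophic factor Nrtn (log2 fold change 1.03, adjusted p = 0.113), Frem2 (-0.58, 0.144), Plxna4 (-0.67, 0.175) and Ldha (0.48, 0.188).

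**Figure D5:**
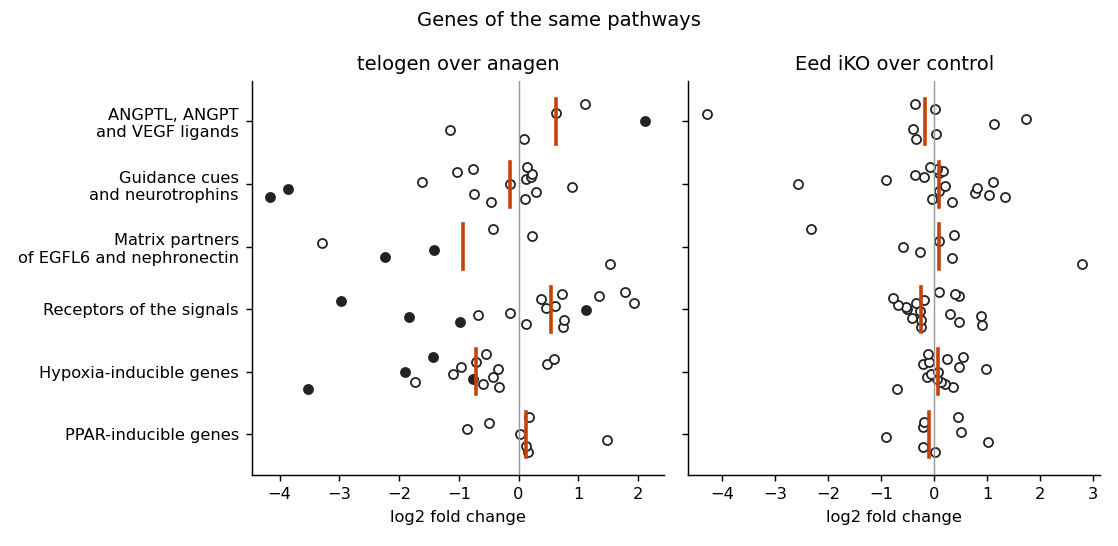
Log2 fold change of each tested gene of the 6 pathway lists, telogen over anagen on the left and Eed iKO over control on the right. Points are genes, filled where the adjusted p was under 0.05, and vertical bars are list medians. Of the hypoxia-inducible list, Hif1a and Epas1 included, 13 of 15 genes lie below 0 on the left. No point on the right is filled, where 0.0267% of all genes tested passed.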

How the data were processed

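RNA of FACS-purified mouse HFSCs was amplified with the Ovation RNA-seq System V2. Per the study's methods, reads were aligned to Gencode vM20 transcripts with Kallisto (0.42.5) and groups compared with DESeq2. The signal deposited by the authors is, for each gene, a normalized count. The Eed iKO values behaved as counts divided by a size factor of the library, while the form of the hair cycle scaling is not known. The deposited log2 columns hold the authors' log2 fold changes and standard errors, and the deposited p-value columns their unadjusted and adjusted p-values, and neither was used. The means of the libraries differed from the deposited means by at most 5.3e-05. TPM filtering by the authors was not repeated.

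The members and lists were chosen with earlier results of these data known. Genes were matched by symbol, and coordinates are GENCODE vM21 (GRCm38), to which 17879 and 21915 genes matched by identifier. Each table was fitted on its own with limma 3.58.1 (R 4.3.3, intensity trend) on log2(value + 1) after filterByExpr (count minimum 10), leaving 15008 and 13457 genes, and p-values were adjusted over all of them. The functions were tested on simulated data. Of the Eed iKO values, 100% were whole multiples of 1 constant per library (tolerance 0.02), and of the hair cycle values 3.6% to 10.9%, so edgeR 4.0.16 and DESeq2 1.42.0 were run on recovered reads of the Eed iKO table only. Intervals of fold changes are at the 95% level.

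Named were all members, and from each list the 2 highest and 2 lowest changed genes, or the gene with the smallest p. Some genes that fall under this rule are not reported here, and counts include them. Genes of like pattern were the 3 with the highest r to the members with the largest and smallest hair cycle change. Alternatives were a pseudocount of 0.1, no filter, TMM scaling, no intensity trend, a replicate block, each library left out, the thresholds of the methods (unadjusted p under 0.05 with a log2 fold change beyond 1.5, or 2 for the hair cycle) and the count tests.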

Additional observations from a re-analysis of the deposited data

How the results depend on the processing

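Of the members, 0 passed in Eed iKO against control under every alternative but the following, and 1 (Angptl7, 0.89) passed without control replicate 3 and Eed iKO replicate 3, an alternative chosen after seeing the data. The number of all genes passing in that comparison, 4, was 424 with the replicate block, 2 without the intensity trend, 5 with edgeR, 672 with DESeq2, 263 at the thresholds of the methods and 201 without these 2 libraries, and leaving out 1 library gave 1 to 203, the highest without Eed iKO replicate 3. In the hair cycle, 4 members passed, 3 without the intensity trend (Angptl2, 0.99, adjusted p = 0.078), 3 or 4 with 1 library left out, and 1 at the thresholds of the methods. All genes passing, 1556, became 842 without the intensity trend and 686 at the thresholds of the methods, and 597 to 1529 with 1 library left out, the lowest without anagen replicate 1 (712 without anagen replicate 2, 854 without anagen replicate 3). To look for pairing, each gene's group mean was subtracted from its log2(value + 1), and the remainders were correlated between same-numbered libraries of the 2 groups. These remainders correlated by 0.039, 0.068 and 0.193 in the Eed iKO table, where 4 of 6 libraries correlated best with their own number. In the hair cycle table they correlated by -0.035, -0.071 and -0.029. Not every pair was over 0.1 in either table, and the numbers were not taken to pair the samples. With the replicate block 1224 hair cycle genes passed and no member's call changed, though 3 members (Angptl2, Angptl7 and Npnt) in place of 1 had an unadjusted p under 0.05 in the Eed iKO table. The sign turned for Egfl6 in the Eed iKO table without control replicate 2 (-0.02), Eed iKO replicate 1 (-0.0025) or Eed iKO replicate 2 (-0.0738), -0.0738 to 0.1663 over single left-out libraries and 0.2342 without both of the above, for Angptl4 in the hair cycle without anagen replicate 1 (0.38), telogen replicate 1 (0.08) or telogen replicate 2 (0.0056; -0.9503 to 0.3764 over all), and for Ntn4 without anagen replicate 1 (0.09), telogen replicate 2 (0.11) or telogen replicate 3 (0.09; -0.4582 to 0.1068 over all). The causes were not tested. Count tests of the hair cycle table were not run because whole reads were not recovered, and its depth, being unknown, sets no limit for the low genes Angptl4, Sema3a and Vegfc.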

Other observations

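Markers of some other cell types moved with the hair cycle, while those of suprabasal epidermis (4229 to 12812 in anagen, 7821 to 15450.0 in telogen) overlapped between stages. Summed over 5 melanocyte markers the level was 437 to 802.8 in anagen and 81.3 to 159.6 in telogen, and 1 of the 4 tested, Dct, a pigment enzyme, fell by 2.51 on the log2 scale (limma adjusted p = 0.00187). Over 5 fibroblast and dermal papilla markers it was 265.2 to 456.2 in anagen and 49.1 to 115 in telogen. Of the 3 tested, 2 fell, the collagen gene Col1a1 (-2.06, limma adjusted p = 0.00928) and Dcn (-4.05, adjusted p = 0.0106). The other 1 had a positive log2 fold change and did not pass the test. Endothelial markers summed to 60.6 to 131.3 in anagen and 56.8 to 122.8 in telogen, and Schwann cell markers to 90.3 to 105.4 and 135.7 to 178.7, and 0 of the 1 and 2 markers tested of these passed (1 Schwann cell marker at an unadjusted p under 0.05).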
